A study of Mus musculus with 6 samples.

Results

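A group of 10 mouse carboxylesterase genes around Ces1c was followed in RNA sequencing of intestinal crypts: Ces1b, Ces1c, Ces1d, Ces1e, Ces1f and Ces1g of the Ces1 subfamily, and Ces2a, Ces2b, Ces2c and Ces2e of the Ces2 subfamily. These 10 genes are among 24736 genes in the expression table. They were chosen on this same contrast, because Ces1c was strongly raised in the knockout, so the differences between genotypes in these genes are a description and carry no test. The study asked what loss of the transcriptional co-repressor MTG16 does in the crypt, and compared 3 wild-type (WT) mice with 3 Mtg16-/- mice, all males aged 12 weeks and described as biological triplicates. Crypts were released with EDTA from the full length of the gut, and ribosomal RNA was removed before library preparation. The labels describe the deletion as induced by CRISPR, whereas the study's methods describe Mtg16-/- mice received as a gift, and neither names a Cre driver or limits the loss to the epithelium.

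Carboxylesterases are serine hydrolases of the endoplasmic reticulum that cleave ester and amide bonds in drugs, other foreign compounds and lipids. In the mouse the Ces1 and Ces2 subfamilies each expanded by tandem duplication, so that close copies lie side by side on the same chromosome. Ces1 enzymes are best known from liver, where some hydrolyse stored triacylglycerol, and Ces2 enzymes are the typical carboxylesterases of the intestinal absorptive cell, the enterocyte.

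Levels are given in TPM, the share of each transcript in its library after scaling for transcript length, so they can be compared between genes. Differences are given on the log2(TPM + 1) scale as Mtg16-/- minus WT with the standard error (SE) of a limma fit over all 12268 genes with a mean of at least 1 TPM, and they understate the change of genes at low TPM. Correlations between libraries on the log2(TPM + 1) scale lay between 0.931 and 0.98. Cbfa2t3, the gene that encodes MTG16, was at 3.67, 6.69 and 4.52 TPM in WT and at 4.62, 6.43 and 3.23 TPM in Mtg16-/-. The groups overlapped, the difference was -0.06 ± 0.27 (limma, adjusted p = 0.937), and the TPM of the whole gene therefore does not separate the genotypes, so every direction below rests on the labels, and Mtg16-/- stands throughout for the libraries labelled so. Its relative Runx1t1, which encodes MTG8, was at 0.15, 0.29 and 0.35 TPM in WT and at 1.2, 1.08 and 1.11 TPM in Mtg16-/-, below the filter for a test. Crypt markers were present in every library: the summed TPM of 7 Paneth cell markers ranged from 9018 to 29550, and that of 7 stem cell markers from 868 to 2143. Enterocyte markers were also abundant, and the lower values in Mtg16-/- are given with the carboxylesterases below.

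The promoters of the family are shown first, since copies that stand side by side differ in how far their levels differed between genotypes. The promoter set used here held 7 of the 10 genes, Ces1b, Ces1c, Ces1e, Ces1g, Ces2a, Ces2c and Ces2e, with 2 overlapping entries for Ces1b. It held no entry for Ces1d, Ces1f and Ces2b, whose promoters were therefore not searched. Each sequence below is the 250 bases before the start in GRCm38.p6, the assembly behind mm10, written 5′ to 3′ in the direction of transcription, with matches to the searched motifs in capitals. The Ces1b window is chr8:93079941-93080190 on the minus strand, the Ces1c window is chr8:93131284-93131533 on the minus strand, and the Ces1e window is chr8:93229620-93229869 on the minus strand. The Ces2a window is chr8:104733753-104734002 on the plus strand, and the Ces2e window is chr8:104926010-104926259 on the plus strand. Ces1b and Ces1c are shown as the closest pair, Ces1e as a Ces1 gene whose groups overlapped, and Ces2a and Ces2e as the Ces2 genes that shared motifs.
Ces1b: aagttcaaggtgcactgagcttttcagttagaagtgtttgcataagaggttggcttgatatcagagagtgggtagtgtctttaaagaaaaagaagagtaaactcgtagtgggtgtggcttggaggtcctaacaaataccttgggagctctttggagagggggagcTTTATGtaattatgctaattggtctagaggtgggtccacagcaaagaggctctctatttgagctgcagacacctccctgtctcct
Ces1c: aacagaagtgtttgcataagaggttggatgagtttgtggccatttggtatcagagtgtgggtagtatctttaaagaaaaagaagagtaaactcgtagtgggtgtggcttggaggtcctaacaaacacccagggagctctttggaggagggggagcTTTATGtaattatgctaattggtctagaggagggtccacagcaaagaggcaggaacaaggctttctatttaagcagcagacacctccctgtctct
Ces1e: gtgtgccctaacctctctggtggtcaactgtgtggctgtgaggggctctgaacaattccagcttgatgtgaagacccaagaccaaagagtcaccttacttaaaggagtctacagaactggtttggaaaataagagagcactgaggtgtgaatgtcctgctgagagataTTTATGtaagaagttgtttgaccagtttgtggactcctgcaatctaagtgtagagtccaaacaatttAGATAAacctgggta
Ces2a: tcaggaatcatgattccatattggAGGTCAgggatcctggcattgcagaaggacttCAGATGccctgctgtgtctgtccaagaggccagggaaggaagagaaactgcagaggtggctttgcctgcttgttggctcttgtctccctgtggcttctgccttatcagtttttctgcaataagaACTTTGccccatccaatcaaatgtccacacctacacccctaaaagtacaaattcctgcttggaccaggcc
Ces2e: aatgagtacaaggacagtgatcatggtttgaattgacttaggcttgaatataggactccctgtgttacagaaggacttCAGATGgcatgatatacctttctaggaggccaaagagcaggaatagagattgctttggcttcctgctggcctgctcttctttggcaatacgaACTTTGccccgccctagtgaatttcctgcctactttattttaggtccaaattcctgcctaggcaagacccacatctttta

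The windows of Ces1b and Ces1c were 93.3% identical over 223 aligned bases. The Ces1c window was 60.2% identical to that of Ces1e and 69.5% to that of Ces1g, and the Ces2a window was 69.9% identical to that of Ces2e. Windows of a Ces1 and a Ces2 gene were 53.8 to 68.1% identical, so Ces1c with Ces1e lay within the range between subfamilies. 7 motifs were searched on both strands. The intestinal homeobox (CDX) core TTTATG was found before all 4 Ces1 genes with an entry and before none of the 3 Ces2 genes, against 10.8% of 32851 promoters of the same length. It began 95 bases before the start in Ces1c, 85 in the Ces1b window shown, 82 in Ces1e and 208 in Ces1g. The HNF4 core CAAAGT, which appears as its reverse complement, was found in Ces2a 70 bases and in Ces2e 80 bases before the start, against 12.6% of all promoters. The E-box CAGATG was found in Ces2a, in Ces2e and in the second Ces1b window, against 14.4% of all promoters. The nuclear receptor core AGGTCA was found only in Ces2a, against 14.0%, and the GATA motif AGATAA was found in Ces1e and Ces1g, against 9.99%. The TATA box core TATAAA was found only in Ces1g, on the opposite strand, against 12.4%, and the E-box CAGCTG was found in none of the 7 genes, against 13.0%. The CDX core was thus present both before Ces1c, whose level differed most, and before Ces1e and Ces1g, whose groups overlapped.

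All 10 genes lie on chromosome 8, which also carries Cbfa2t3. The Ces1 genes of the mouse annotation fill 360 kb at chr8:93020214-93379777 on the minus strand, and the Ces2 genes fill 286 kb at chr8:104734003-105020410 on the plus strand. Cbfa2t3 is 29.3 to 29.5 Mb from the 6 Ces1 genes studied and 17.7 to 17.9 Mb from the 4 Ces2 genes. The annotated transcript of Ces1c has 13 exons and a coding sequence of 1662 bases, and the Ces2 genes have 12 exons each.

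The copies are similar enough for reads to be shared between them. Coding sequences were 74.5 to 92.1% identical within a subfamily over 21 pairs and 62.6 to 67.2% identical between subfamilies over 24 pairs. The closest pairs were Ces2b with Ces2c at 92.1% and Ces1b with Ces1c at 91.1%, whereas Ces1c and Ces1d were 79.1% identical. In Ces1c, 13.4% of all 50-base windows of the transcript occurred exactly in another carboxylesterase transcript, and 190 of these 238 windows were shared with Ces1b. The share was largest in Ces2c, at 40.2%, where 734 of 772 shared windows were shared with the pseudogene Ces2d-ps. It was at most 10.8% in every other member, and 1.28% in Ces1d and 0.533% in Ces1f. The authors' quantification with RSEM divides reads that fit several transcripts by estimate, so the values of Ces1b, Ces1c, Ces2b and Ces2c are less certain than those of Ces1d and Ces1f.

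**Figure D1:**
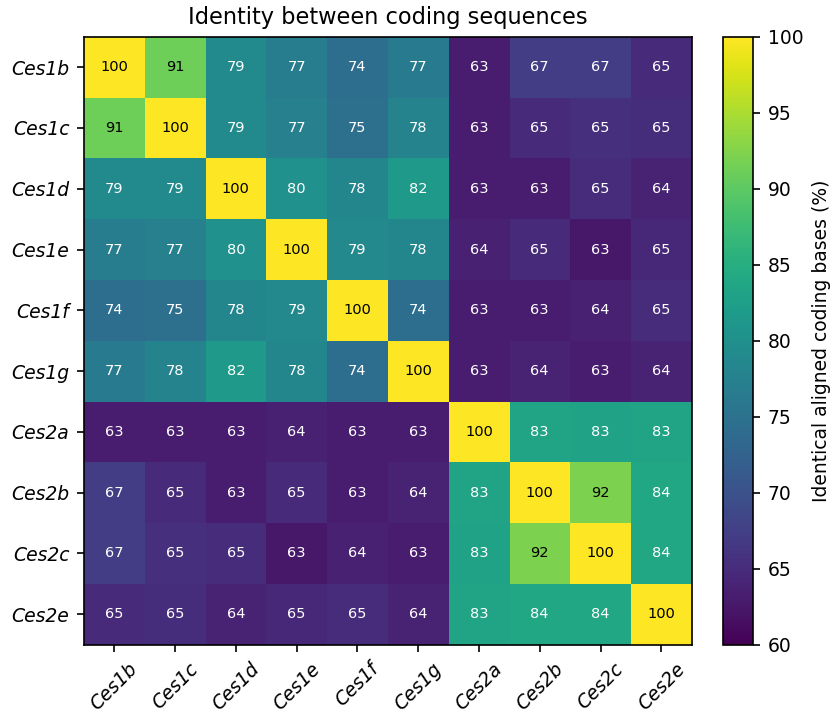
Percentage of identical bases between aligned coding sequences of the 10 carboxylesterases (rows and columns), with lighter cells for higher identity. The 2 brightest pairs off the diagonal are Ces1b with Ces1c at 91.1% and Ces2b with Ces2c at 92.1%, and all pairs between Ces1 and Ces2 lie at 62.6 to 67.2%.

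In WT crypts the Ces2 enzymes were the abundant ones. Ces2e was highest, at 492 ± 223 TPM (SD, n = 3), followed by Ces2c at 166 ± 80.0, Ces2a at 97.4 ± 32.8 and Ces1f at 68.9 ± 19.6. Ces1e stood at 14.6 ± 3.20, Ces1d at 5.39 ± 1.31, Ces1g at 2.64 ± 1.21, Ces1c at 1.65 ± 0.548, Ces2b at 1.22 ± 0.202 and Ces1b at 0.370 ± 0.221 TPM. Neighbours in this order whose ranges overlapped were Ces2c and Ces2a, Ces2a and Ces1f, Ces1g and Ces1c, and Ces1c and Ces2b. The other neighbours had separate ranges, with the largest step, 4.71-fold, between Ces1f and Ces1e. In Mtg16-/- crypts Ces2e was again highest at 313 ± 84.9 TPM and Ces1b again lowest at 0.790 ± 0.262 TPM. Ces1c was below Ces1g in the WT order and 3.68-fold above it in the Mtg16-/- order, where its range overlapped that of Ces1d, and Ces2a and Ces2c had overlapping ranges.

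**Figure D2:**
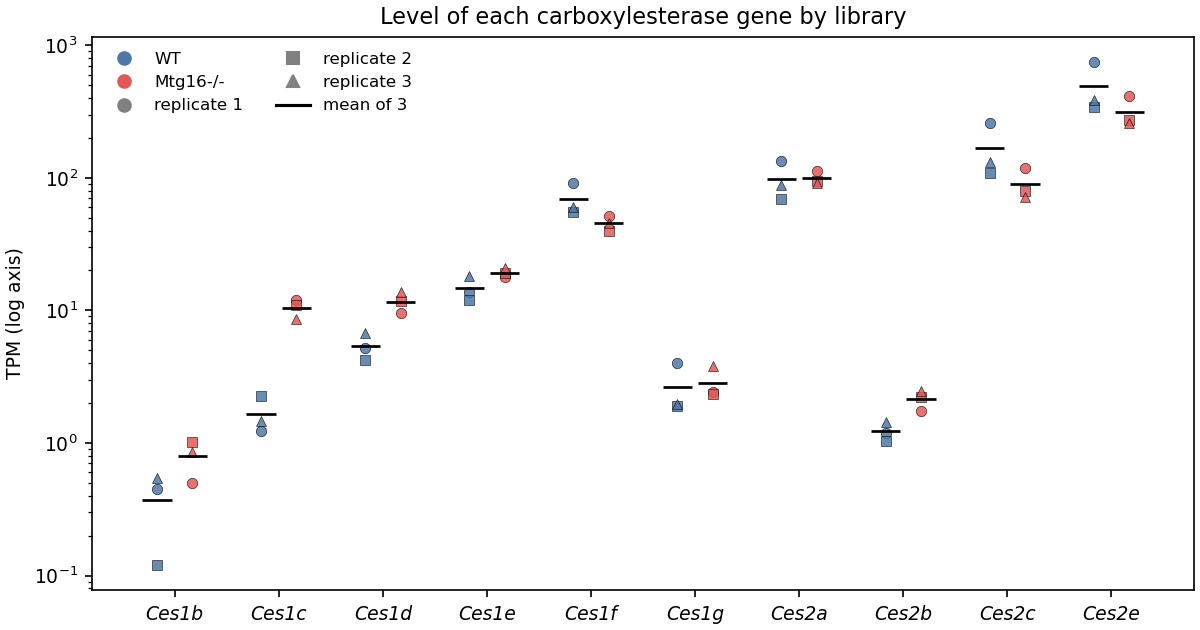
TPM on a log axis of each of the 10 carboxylesterases in 3 WT (blue) and 3 Mtg16-/- (red) libraries, with circles, squares and triangles for replicates 1, 2 and 3 and a bar for the mean of 3. Ces1c shows the widest gap between genotypes, from a mean of 1.65 to 10.5 TPM, while Ces2e is the highest gene in both.

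Ces1c (ENSMUSG00000057400, chr8:93099015-93131283) encodes the carboxylesterase that mouse liver secretes into plasma. It was at 1.22, 2.27 and 1.47 TPM in WT and at 11.96, 10.99 and 8.55 TPM in Mtg16-/-. Every Mtg16-/- library was above every WT library, and the mean was 6.35-fold higher, at 10.5 ± 1.76 against 1.65 ± 0.548 TPM (SD, n = 3 each). The difference was 2.12 ± 0.21 on the log2(TPM + 1) scale.

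Ces1d (chr8:93166072-93197804), a triacylglycerol hydrolase known from liver and adipose tissue, was at 5.18, 4.2 and 6.8 TPM in WT and at 9.54, 11.7 and 13.67 TPM in Mtg16-/-. The groups did not overlap, and the mean was 2.16-fold higher, at 11.6 ± 2.07 TPM, with a difference of 0.99 ± 0.20. Ces1b (chr8:93056725-93080017), the close copy of Ces1c, was at 0.45, 0.12 and 0.54 TPM in WT and at 0.5, 1.01 and 0.86 TPM in Mtg16-/-. Its groups overlapped, its levels were below the filter, and 1 Mtg16-/- library was lower than the highest WT library. The mean of Ces1b was 2.1-fold higher in Mtg16-/-, with a difference of 0.39 that was not tested at this low level. Ces1b stayed near or below 1 TPM in every library in which Ces1c was at 8.55 TPM or more.

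Ces1e (chr8:93201218-93229631) encodes egasyn, which holds beta-glucuronidase in the endoplasmic reticulum. It was at 13.84, 11.9 and 18.15 TPM in WT and at 17.9, 19.04 and 20.94 TPM in Mtg16-/-. The groups overlapped by 1 library on each side, since Mtg16-/- replicate 1 was just below WT replicate 3, and the difference was 0.39 ± 0.17. Gusb, the gene of beta-glucuronidase, had means of 30.2 ± 2.96 and 29.6 ± 1.24 TPM (difference -0.02 ± 0.12, limma, adjusted p = 0.939). Ces1g (chr8:93302369-93337209), which takes part in lipid metabolism in liver, was at 4.04, 1.9 and 1.98 TPM in WT and at 2.42, 2.33 and 3.81 TPM in Mtg16-/-. Its groups overlapped, and the difference of 0.11 ± 0.28 was smaller than its error.

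Ces1f (chr8:93256236-93279766), the most abundant Ces1 gene in both genotypes, ran the other way. It was at 91.28, 55.21 and 60.13 TPM in WT and at 51.86, 39.77 and 45.29 TPM in Mtg16-/-. All Mtg16-/- libraries were below all WT libraries, and the difference was -0.56 ± 0.20. Along the chromosome the differences were 2.12 in Ces1c, 0.99 in Ces1d, 0.39 in Ces1e, -0.56 in Ces1f and 0.11 in Ces1g, so the sign changed within the cluster between Ces1e and Ces1f.

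In the main fit no Ces2 gene differed by as much as Ces1c or Ces1d, though Ces2c came near Ces1d in size. Without WT replicate 2 that order turned, with -1.06 for Ces2c and 0.85 for Ces1d. Ces2e (chr8:104926260-104934672), the most abundant carboxylesterase of these crypts, was at 747.9, 340.65 and 387.01 TPM in WT and at 411.05, 272.13 and 257.03 TPM in Mtg16-/-. The groups overlapped, with WT replicate 1 far above the other 5 libraries, and the difference was -0.59 ± 0.31. Ces2c (chr8:104847068-104854483), an intestinal enzyme that hydrolyses acylglycerols, was at 257.78, 109.4 and 131.61 TPM in WT and at 119.35, 79 and 71.56 TPM in Mtg16-/-. Here too WT replicate 1 stood far above the rest, Mtg16-/- replicate 1 was above WT replicate 2, and the difference was -0.81 ± 0.33.

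Ces2a (chr8:104734003-104741634), a hydrolase of lipids and drugs, was at 133.59, 69.66 and 88.81 TPM in WT and at 113.37, 94.82 and 91.39 TPM in Mtg16-/-. The Mtg16-/- values lay within the WT range, with a difference of 0.08 ± 0.23. Ces2b (chr8:104828494-104840093) was at 1.19, 1.04 and 1.44 TPM in WT and at 1.73, 2.21 and 2.46 TPM in Mtg16-/-. All Mtg16-/- values of Ces2b were higher, by 0.49 ± 0.21 on the log2(TPM + 1) scale, at a level of 1 to 3 TPM.

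**Figure D3:**
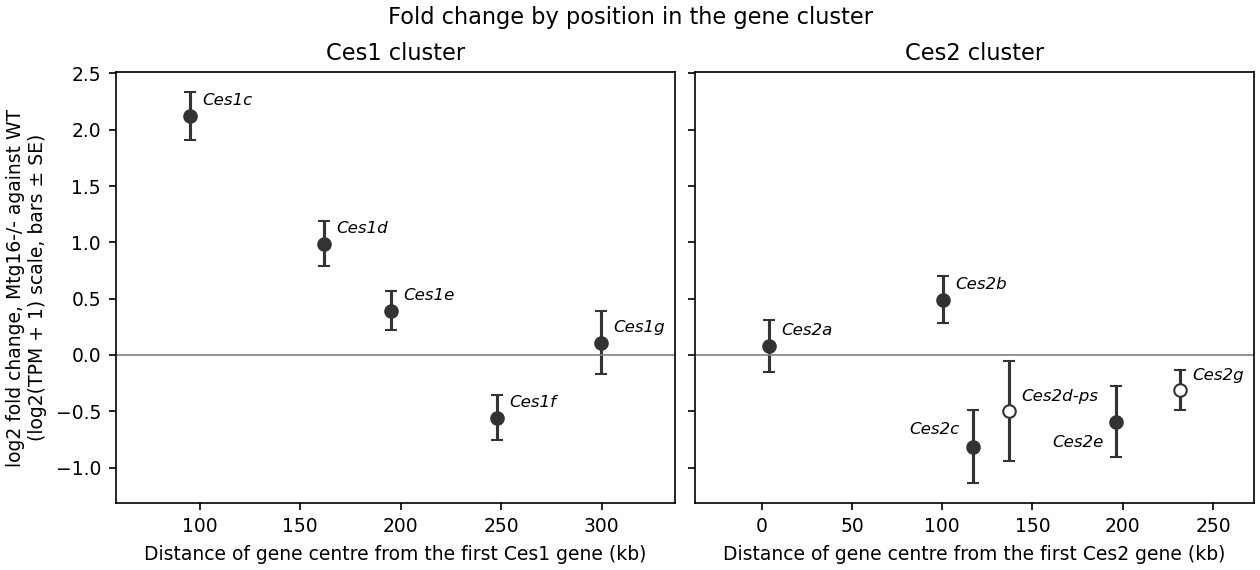
Difference between Mtg16-/- and WT on the log2(TPM + 1) scale (points, bars ± SE) against the distance in kb of each tested gene's centre from the first annotated gene of its cluster, with filled points for the genes chosen and open points for Ces2d-ps and Ces2g. In the Ces1 cluster the points run from 2.12 at Ces1c to -0.56 at Ces1f, and in the Ces2 cluster they run from 0.49 at Ces2b to -0.81 at Ces2c.

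Counted over the family, 9 of the 10 genes passed the filter, 6 were higher and 3 lower in Mtg16-/-, and the median difference was 0.11, beside -0.03 over all 12268 genes tested. Of these 9 only Ces1c was called by limma at an adjusted p under 0.1, where 0.0326% of all genes were called, and it was not called when any single Mtg16-/- library was left out. Ces1c, Ces1d and Ces2b had all Mtg16-/- libraries above WT, as did 9.94% of all genes, and Ces1f had all below, as did 11.1%. Since Ces1c chose the family in this contrast, nothing is read from these counts. The median was 0.39 over 5 Ces1 genes and -0.25 over 4 Ces2 genes, and the Ces2 median turned to 0.04 without WT replicate 1 and to 0.30 with the enterocyte covariate described below.

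Sums over each subfamily depend less on how reads were divided between close copies, though Ces2c and Ces2e also share windows with Ces2d-ps and Ces2g outside the sum, and TPM scales each gene by its own length. The summed TPM of the 6 Ces1 genes was 116, 75.6 and 89.1 in WT and 94.2, 84.8 and 93.1 in Mtg16-/-. The groups overlapped, with means of 93.6 ± 20.6 and 90.7 ± 5.11 TPM. The total of the Ces1 genes, which includes the chosen Ces1c, was therefore nearly level while its make-up differed. The log2 ratio of the mean sums was -0.04, and -0.20 without Ces1c. Shares add up to the whole, so a higher share of Ces1c leaves a smaller share for the other genes. Ces1f supplied 78.7, 73.0 and 67.5% of the Ces1 total in WT and 55.1, 46.9 and 48.6% in Mtg16-/-. Ces1c supplied 1.05, 3.0 and 1.65% in WT and 12.7, 13.0 and 9.18% in Mtg16-/-. Neither share overlapped between genotypes, and the mean share of Ces1d was 5.89 ± 1.61% in WT and 12.9 ± 2.41% in Mtg16-/-.

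The summed TPM of the 4 Ces2 genes was 1140, 521 and 609 in WT and 645, 448 and 422 in Mtg16-/-, with overlapping groups and WT replicate 1 highest. Within the Ces2 total the share of Ces2a was 11.7, 13.4 and 14.6% in WT and 17.6, 21.2 and 21.6% in Mtg16-/-. Every Mtg16-/- share of Ces2a was above every WT share, although its TPM overlapped. The share of Ces2c was 22.6, 21.0 and 21.6% in WT and 18.5, 17.6 and 16.9% in Mtg16-/-. The ratio of Ces2c to Ces2e was 0.345, 0.321 and 0.340 in WT and 0.290, 0.290 and 0.278 in Mtg16-/-. Within each genotype this ratio hardly varied between libraries, although the TPM of both genes varied more than 2-fold between WT libraries.

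**Figure D4:**
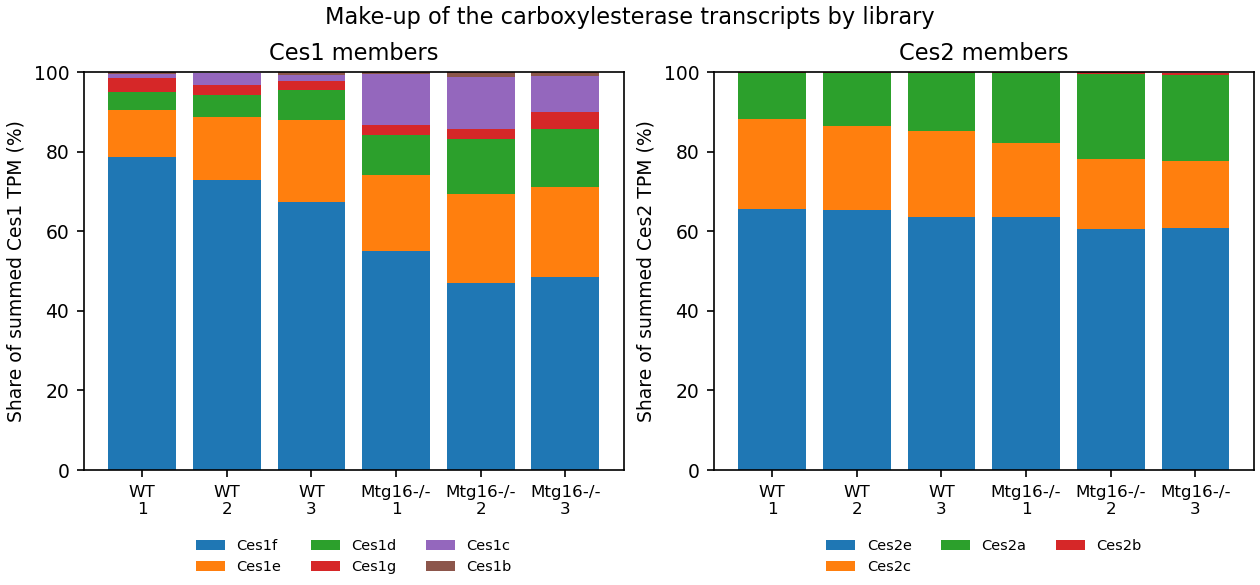
Stacked shares (%) of each gene in the summed TPM of the 6 Ces1 genes (left) and of the 4 Ces2 genes (right), for 3 WT and 3 Mtg16-/- libraries. Ces1f takes 67.5 to 78.7% of the Ces1 bars in WT and 46.9 to 55.1% in Mtg16-/-, and Ces2e takes 60.7 to 65.6% of every Ces2 bar.

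Enterocyte marker levels differed between the libraries and, in part, ran alongside those of the abundant members. All 16 enterocyte markers tested were lower in Mtg16-/-, with a median difference of -1.15, though none was called by limma and 9 had an unadjusted p under 0.05, as did 14.6% of all genes tested, the share against which such counts are read below. Their summed TPM was 38130, 13350 and 16360 in WT and 13770, 7698 and 6923 in Mtg16-/-. WT replicate 1 had the most, and Mtg16-/- replicate 1 lay within the WT range. Replicate 1 was also the highest library of its genotype for Ces1f, Ces2a, Ces2c and Ces2e, which was not so for Ces1d, Ces1e or Ces2b in either genotype. Within each genotype the libraries stood in the same order for Ces2a, Ces2c, Ces2e and the marker sum. Across genotypes Ces2a went against the markers. It was at 91.39 TPM in Mtg16-/- replicate 3, which had the fewest markers, and at 69.66 TPM in WT replicate 2, which had more. In these bulk libraries, fewer enterocytes and less RNA per enterocyte cannot be told apart.

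The carboxylesterase sums were also set against the enterocyte markers, a ratio that rises wherever the markers are lower. Per 1000 TPM of enterocyte markers, the 4 Ces2 genes summed to 29.9, 39.0 and 37.2 TPM in WT and to 46.9, 58.2 and 61.0 TPM in Mtg16-/-. The Ces1 genes summed to 3.04, 5.66 and 5.44 TPM in WT and to 6.84, 11.0 and 13.5 TPM in Mtg16-/-. For both sums all Mtg16-/- libraries were above all WT libraries on this scale, whereas both sums overlapped in plain TPM. Ces1f on this scale had overlapping groups. Per TPM of Vil1 alone, a marker chosen after seeing the data, the Ces2 sum was 0.614, 0.510 and 0.557 in WT and 0.567, 0.575 and 0.778 in Mtg16-/-, which overlapped. The Ces1 sum per TPM of Vil1 was 0.0625, 0.074 and 0.0815 in WT and 0.0827, 0.109 and 0.171 in Mtg16-/-, which did not overlap. The separation of the Ces2 groups thus depended on which enterocyte markers were used. The Ces1 groups were apart on both scales, but their sum includes Ces1c, which was chosen because it rose. Per TPM of Vil1 they were barely apart, with the highest WT value at 0.0815 and the lowest Mtg16-/- value at 0.0827. A Ces1 sum without Ces1c was not set against the markers, so nothing is read from this separation. Ces2c was at 6.76, 8.20 and 8.04 TPM in WT and at 8.67, 10.3 and 10.3 TPM in Mtg16-/- per 1000 TPM of enterocyte markers.

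The differences were also taken from a fit with the enterocyte marker score of each library as a covariate, which was chosen after seeing the data. There the difference was 2.01 for Ces1c and 0.87 for Ces1d, close to the values without it, but Ces1c was no longer called. It was -0.10 for Ces1f, 0.04 for Ces2c and 0.22 for Ces2e, so the lower level of Ces1f shrank and the sign of Ces2c and Ces2e turned. For Ces2a the difference was 0.62. All 16 markers in this score were lower in Mtg16-/-, so with 6 libraries the fit cannot fully separate the score from genotype. With replicates 2 and 3 of each genotype alone, also chosen after seeing the data, the difference was 1.91 for Ces1c, 1.10 for Ces1d, -0.43 for Ces1f, -0.67 for Ces2c and -0.46 for Ces2e.

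**Figure D5:**
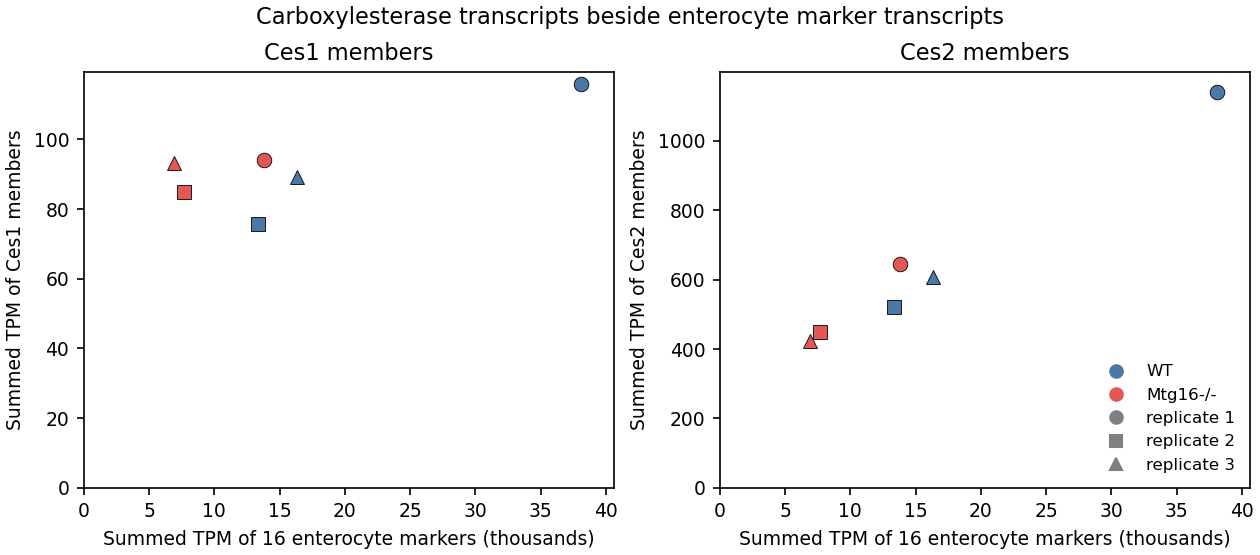
Summed TPM of the Ces1 genes (left) and of the Ces2 genes (right) against the summed TPM of 16 enterocyte markers, for 3 WT (blue) and 3 Mtg16-/- (red) libraries with replicate number by shape. WT replicate 1 lies far to the right at 38130 TPM of markers, and the Ces2 sum runs from 422 TPM in Mtg16-/- replicate 3 to 1140 TPM in WT replicate 1.

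Markers of other cell types were read because Ces1c and Ces1d are best known from liver and adipose tissue. Of 15 hepatocyte markers, 5 passed the filter and were higher in Mtg16-/- with a median difference of 0.52, of which none was called by limma and 2 had an unadjusted p under 0.05. The whole list summed to 21.2 to 31.4 TPM in WT and 39.8 to 43.0 TPM in Mtg16-/-, and most of it was Hpd and Ttr. Of the 5 tested, Cyp2e1 differed most, from 1.66 ± 0.462 TPM in WT to 4.04 ± 1.24 TPM in Mtg16-/- (difference 0.90 ± 0.25). All its Mtg16-/- libraries were above WT, as in 9.94% of all genes. Albumin, the most abundant hepatocyte transcript, was at most 0.44 TPM in any library, and Serpina3k, Fga and Fgg were listed at 0 in all. Of 8 adipocyte markers, Adipoq, Plin1, Lep, Cfd and Retn were listed at 0 in all libraries. The only adipocyte marker tested, Cidec, is also a lipid droplet gene of enterocytes. Markers of some crypt cell types had higher values in Mtg16-/-: all 7 Paneth cell markers had positive differences with a median of 0.96, all 7 stem cell markers with a median of 0.64 and all 8 enteroendocrine markers with a median of 0.56. None of these was called by limma, and 5, 5 and 6 had an unadjusted p under 0.05. Of 7 goblet cell markers 2 were higher and 5 lower, with a median of -0.43, none called by limma and 2 at an unadjusted p under 0.05. All 8 markers of proximal gut had negative differences with a median of -0.71, none called by limma and 5 at an unadjusted p under 0.05. Lct is also among the enterocyte markers. Of 5 ileum genes tested 2 were higher and 3 lower, with a median of -0.24. Of 6 colon genes tested 2 were higher and 4 lower, with a median of -0.45. No ileum or colon gene was called by limma, and 1 and 3 had an unadjusted p under 0.05. The part of these cell types and gut regions in the carboxylesterase values was not tested.

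9 other carboxylesterase genes stood in the table, and they were not used to choose the family. Ces2g was at 51.89, 34.32 and 43.18 TPM in WT and at 31.52, 31.44 and 39.88 TPM in Mtg16-/-, with overlapping groups and a difference of -0.31 ± 0.18 (limma, adjusted p = 0.433). The pseudogene Ces2d-ps was at 2.95, 1.06 and 0.7 TPM in WT and at 1.98, 0.32 and 0.25 TPM in Mtg16-/- (difference -0.50 ± 0.44, limma, adjusted p = 0.600), and in both genotypes it was highest in replicate 1, like Ces2c. These were the 2 tested, and neither was called or had an unadjusted p under 0.05. Ces2f, Ces2h and Ces3a were below the filter, and Ces1a, Ces3b, Ces4a and Ces5a were listed at 0 in every library. The gene copy next to Ces1b, Ces1a, was thus listed at 0 where Ces1c was raised.

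The tested genes nearest to the clusters had smaller differences than Ces1c, which was itself chosen because it rose. Their annotated starts lay 1707 to 2192 kb below and 430 to 688 kb above the Ces1 cluster on the chromosome. For the Ces2 cluster they lay 142.5 to 394.6 kb below and 150 to 244 kb above. The 5 nearest tested genes on each side of the Ces1 cluster had differences between -0.16 and 0.44, and those beside the Ces2 cluster between -0.32 and 0.55. None was called by limma, and 2 of the 20 had an unadjusted p under 0.05, a share no higher than the 14.6% of all genes. They were Nudt21, which takes part in cleavage of pre-mRNA ends, with a difference of 0.44 ± 0.15 (adjusted p = 0.288), and Cbfb, the partner of the RUNX factors, with 0.45 ± 0.18 (adjusted p = 0.312). Both had all Mtg16-/- libraries above WT, as did 9.94% of all genes. Pdp2 (-0.32) and Tradd (-0.22), beside the Ces2 cluster, had all Mtg16-/- libraries below WT, as did 11.1% of all genes.

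The 5 tested genes whose log2(TPM + 1) was most like that of Ces1c over the 6 libraries were Dctn4 (Pearson r = 0.996), Itih5 (0.990), Cep97 (0.986), Ctdsp2 (0.985) and 4732490B19Rik (0.982). All 5 were picked from 12267 genes for this likeness and lie outside the carboxylesterase clusters. Their differences were far smaller than that of Ces1c: Ctdsp2, a phosphatase gene, went from 99.9 ± 3.86 to 143 ± 10.1 TPM, and Itih5 from 3.46 ± 0.475 to 6.45 ± 0.428 TPM. Within the family, Ces1d was most like Ces1c (r = 0.837, position 492 of 12267), followed by Ces2b (0.808) and Ces1e (0.643). Ces1f (-0.80), Ces2c (-0.71) and Ces2e (-0.62) ran against it, and Ces1g and Ces2a were near 0. These r values describe 6 libraries that fall into 2 genotypes.

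No other tested lipid hydrolase differed by as much as Ces1c, and Pnliprp2 came nearest. Of 27 listed genes 23 were tested, 5 higher and 18 lower, with a median of -0.22, none called by limma and 7 at an unadjusted p under 0.05 (14.6% over all genes). Pnliprp2, a lipase related to pancreatic lipase, was at 29.8, 53.96 and 57.39 TPM in WT and at 169.21, 147.32 and 127.04 TPM in Mtg16-/-. The groups did not overlap, and the difference was 1.68 ± 0.25 (limma, adjusted p = 0.104), which missed the threshold. The sum of 11 acinar pancreas markers was 9.15 to 37.7 TPM in WT and 8.25 to 12.6 TPM in Mtg16-/-, and Prss1 was listed at 0. Abhd2, a monoacylglycerol lipase, had means of 210 ± 87.2 and 115 ± 34.5 TPM (-0.83 ± 0.33, adjusted p = 0.313 by limma). Lypla1, which removes acyl groups from proteins and lysophospholipids, differed by 0.17 ± 0.19. Aadac, a deacetylase that shares substrates with the carboxylesterases, differed by -0.21 ± 0.25, and the groups overlapped for both.

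Of 12 other esterases and hydrolases of foreign compounds 11 were tested, 5 higher and 6 lower, with a median of -0.01, none called by limma and 3 at an unadjusted p under 0.05 (14.6% over all genes). Ephx2, soluble epoxide hydrolase, was at 366.9, 115.83 and 163.06 TPM in WT and at 108.04, 69.5 and 74.03 TPM in Mtg16-/-, with no overlap and a difference of -1.20 ± 0.39 (limma, adjusted p = 0.279). WT replicate 1 was again the highest library. Esd and Pon2, a further esterase and a lactonase, differed by 0.13 ± 0.13 and 0.04 ± 0.12. The receptors that retrieve proteins to the endoplasmic reticulum were lower or level: Kdelr2 had means of 240 ± 43.6 and 177 ± 16.6 TPM (-0.43 ± 0.16), and Kdelr1 differed by -0.12 ± 0.13. With Gusb and Kdelr3, 4 of 4 were lower with a median of -0.28, none called by limma and 1 at an unadjusted p under 0.05.

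Genes of triacylglycerol synthesis and lipid droplets were mostly lower, with 19 of 24 tested below WT, a median of -0.61, none called by limma and 11 at an unadjusted p under 0.05 (14.6% over all genes). Mttp, which loads lipid onto apolipoprotein B, was at 1114, 436 and 559 TPM in WT and at 425, 263 and 225 TPM in Mtg16-/- (-1.14 ± 0.37, limma, adjusted p = 0.279). Acsl5, an acyl-CoA synthetase, had means of 696 ± 359 and 289 ± 79.6 TPM, and neither gene overlapped between genotypes. Apob and Dgat1 had differences of -1.04 ± 0.51 and -0.43 ± 0.26 with overlapping groups. These medians stand beside -1.15 for the enterocyte markers, -0.25 for the 4 Ces2 genes, whose sign turned without WT replicate 1, and 0.39 for the 5 Ces1 genes.

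Nuclear receptors and other regulators linked to carboxylesterase or enterocyte genes counted 7 higher and 12 lower of 19 tested, beside 5687 higher and 6581 lower over all genes, with a median of -0.14, none called by limma and 6 at an unadjusted p under 0.05 (14.6% over all genes). Hnf4a, the nuclear receptor of the HNF4 core, had means of 577 ± 34.9 and 551 ± 24.8 TPM (-0.07 ± 0.13, limma, adjusted p = 0.834). Cdx1, an intestinal homeobox factor, differed by 0.04 ± 0.16 with overlapping groups. Cdx2, the other CDX factor, was at 136.98, 168.43 and 175.78 TPM in WT and at 223.94, 215.63 and 213.51 TPM in Mtg16-/-. All Mtg16-/- libraries were higher, by 0.45 ± 0.13, but the difference was not called (limma, adjusted p = 0.265). Nfe2l2, the factor of the oxidant response, was lower in all Mtg16-/- libraries, with a difference of -0.39 ± 0.16 (limma, adjusted p = 0.318).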

How the data were processed

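Intestinal crypts of 3 WT and 3 Mtg16-/- mice were profiled with 1 library each, and groups came from the sample labels. The authors deposited TPM values estimated with RSEM for 24736 gene symbols. The submitters' processing notes name cutadapt 1.9.1, STAR 2.5.2a, RSEM 1.3.0, DESeq2 1.12.3 and the build mm10, and the gene annotation is not given in the sources used here. TPM holds no number of reads, hence library depth is unknown and no interval that needs it is given. Ces1h was not analysed here.

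TPM was transformed as log2(TPM + 1), and the 12268 genes with a mean of at least 1 TPM were fitted with limma 3.58.1 (statmod 1.5.0, R 4.3.3; lmFit and eBayes with an intensity trend, no covariate), with Benjamini-Hochberg adjustment over all genes and calls at an adjusted p under 0.1. DESeq2 needs counts and was not run. The procedure was tested on simulated data. P-values measure the spread between these mice.

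The 10 carboxylesterases and the gene lists were chosen with earlier results of these data known, and so was the rule for named genes: all 10, the other carboxylesterases, the Mtg family, called genes and up to 4 members of highest mean TPM in each list, the 5 genes most like Ces1c and the 5 nearest tested genes on each side of a cluster. Genes named beyond it (cell type markers listed at 0, Hpd, Ttr, Cyp2e1, Lct, Cidec and Albumin) were named after their values were seen.

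Transcripts and coding sequences were taken from GENCODE vM21 and aligned with Biopython 1.88 (Python 3.11.15). Positions and promoters were taken from RefSeq GRCm38.p6, which matched 24076 of 24736 symbols. Motifs were exact matches on both strands of the 250 bases before a start. Alternatives were a pseudocount of 0.1, no filter, a mean of at least 5 TPM, median-ratio rescaling, quantile normalization, no trend, a replicate block, an adjusted p under 0.05, each library left out and, added after the data were seen, the enterocyte marker score as a covariate, replicates 2 and 3 alone and Vil1 as the only enterocyte marker.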

Additional observations from a re-analysis of the deposited data

How the results depend on the processing

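Ces1c was higher in Mtg16-/- under all 14 alternatives counted for it, from 1.91 to 2.63, the latter with a pseudocount of 0.1. Ces1d was higher under all 14, from 0.85 to 1.14. Ces1e was higher and Ces1f lower under all 14. The changed filters and the replicate block cannot alter the difference of a single gene, so in these counts they only repeat its main value. Ces1g changed sign under 3 of 13, Ces2a under 2 of 14, and Ces2c and Ces2e under the enterocyte covariate only. The median of the Ces1 genes was 0.69 at a mean of at least 5 TPM, where 4 genes remained, and 0.26 to 0.55 with a library left out, the highest without WT replicate 3. The median of the Ces2 genes was 0.30 with the enterocyte covariate and 0.04 without WT replicate 1. The summed Ces1 ratio (log2) lay between -0.20, reached without Ces1c, and 0.14, reached without WT replicate 1. The summed Ces2 ratio lay between -0.80 and -0.16 (log2).

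The number of genes called by limma was unstable, and why was not tested. It was 4 as reported, and 0 with no filter, quantile normalization, no trend or an adjusted p under 0.05, while 1789 genes had an unadjusted p under 0.05. It was 15 at a mean of at least 5 TPM, 1 with median-ratio rescaling, 7 with the enterocyte covariate and 205 with replicates 2 and 3. With a library left out it ranged from 0 to 40: 1, 2 and 0 without Mtg16-/- replicates 1, 2 and 3, and 40 and 9 without WT replicates 1 and 3. Ces1c was not called with no filter, quantile normalization, no trend, an adjusted p under 0.05, the enterocyte covariate or without any single Mtg16-/- replicate.

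With the replicate number as a block, limma called 1201 genes (385 higher, 816 lower), Ces1c among them. Deviations of same-numbered libraries correlated at 0.429, 0.0753 and 0.237. Pairs of different number correlated at -0.331 to 0.198. Not all same-numbered pairs passed 0.1, and WT replicate 2 correlated best with Mtg16-/- replicate 3. The main fit used no block. The labels do not say whether same-numbered libraries were handled together, and a shared batch was not tested. Depth is unknown, which limits every value below about 1 TPM.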
